A study of Mus musculus with 26 samples.

Results

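The comparison described here is that of 5 Rb/p53-mutated pineoblastomas (PB1 to PB5) with 3 samples of normal mouse cerebellum (cerebellum 1 to 3), which are 8 of the 26 samples of the series. The 8 arrays were chosen by sample title, without regard to any measured value. RNA of each sample was hybridized to 1 Affymetrix Mouse Gene 1.0 ST array, whose table also holds 11 Rb/p53-deleted PBs. The remaining samples were run on another array version and were not compared here.

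Mice with Rb/p53-mutated tumors carried WAP-Cre, were Rb flox/flox and had the p53 genotype lsl_R270H/flox. Cre removes both floxed Rb alleles and the floxed p53 allele, and turns on a p53 allele with the DNA-binding domain change R270H. The WAP-Cre transgene, with the promoter of a milk protein, is commonly used to target the mammary epithelium. In these mice it is also expressed in the pineal gland, which the paper ascribes, as likely, to the site where the transgene integrated. Rb/p53-deleted tumors carry floxed alleles of both genes and no R270H allele. The normal samples are cerebellum. The labels give no age or sex for any of the 8 samples and do not say that they came from separate animals, so p-values measure the spread between these samples. No sample of normal pineal gland was analysed here, so each difference below sets a tumor of 1 organ against another organ. The samples are bulk tissue, in which fewer cells of a type and less RNA per cell cannot be told apart.

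Pinealocytes make melatonin from serotonin and share with retinal photoreceptors a set of transcription factors, among them CRX and OTX2, and much of the light-response machinery. The retinoblastoma protein holds E2F transcription factors in check, and cells that lack it express genes of DNA replication and mitosis more freely. p53 is a transcription factor whose targets slow the cell cycle or start cell death. The cerebellum is made mostly of granule neurons, with Purkinje cells, Bergmann glia, astrocytes and oligodendrocytes among them.

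All values below are log2 levels after quantile normalization, which gives every array the same distribution (median 7.72). A difference of 1 is thus 2-fold, and each difference is Rb/p53-mutated PB minus cerebellum with its SE. A gene passed the test at an adjusted p under 0.01 in limma, the false discovery rate (FDR) that the methods name. Of 19938 genes, 4742 (23.8%) passed upward and 5491 (27.5%) downward, and the arrays of the groups did not overlap for 12804 genes (64.2%). Each count of list members below is to be read against these shares. As deposited, the median of an array was 7.04 to 7.12 in Rb/p53-mutated PBs and 7.95 to 8.01 in cerebellum, which puts the median gene at -0.92. On those values 999 genes (5.01%) were higher and 15077 (75.6%) lower. Whether this shift belongs to the array set or to the tumors cannot be told apart.

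Several arrays stood apart before any comparison. The X-inactivation RNA Xist had levels of 13.47, 13.27, 13.03, 6.51 and 10.04 in Rb/p53-mutated PB1 to PB5, against 12.07, 12.21 and 12.06 in cerebellum 1 to 3. The Y-linked histone demethylase gene Uty had levels of 4.25, 4.10, 4.25, 9.48 and 7.58 in Rb/p53-mutated PB1 to PB5, against 4.75, 4.75 and 4.58 in cerebellum 1 to 3. PB4 was thus low for Xist and high for Uty, PB5 was intermediate for both, and the other 6 arrays were high for Xist and low for Uty. Other Y-linked genes had the same order, with Eif2s3y at 3.45, 3.28, 3.33, 8.96 and 6.45 and Kdm5d at 5.21, 5.05, 5.29, 8.27 and 6.73 in PB1 to PB5, against 4.08 to 4.26 and 6.08 to 6.23 in cerebellum. Among the tumors, PB1 and PB3 had the lowest mean over the rod genes and the highest over muscle genes, and the 3 cerebellum arrays differed in genes of secretory glands, with the values given below beside those genes. The 5 tumors also spread more than cerebellum in general. Between 2 arrays of a group, the SD of the difference over genes was 0.286 to 0.497 in Rb/p53-mutated PBs and 0.152 to 0.189 in cerebellum.

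The genes with the largest differences upward formed a photoreceptor and pineal group beside a cell cycle group. Of the 15 leading genes, Impg2 (a proteoglycan of the matrix around photoreceptors), Rbp3 (a retinoid carrier of that matrix), Crx, Neurod4 (a basic helix-loop-helix neural factor), Tph1 (the first enzyme of serotonin synthesis in the pineal), Gnb3 (the G protein β subunit of cones), Rpgrip1 (of the photoreceptor connecting cilium), Cdhr1 (a photoreceptor cadherin), Cabp5 (a retinal calcium-binding protein), Cplx4 (a complexin of ribbon synapses) and Chrna3 (a nicotinic acetylcholine receptor subunit) belong to the first. Esco2 (a cohesin acetyltransferase), Dtl (a substrate adaptor of a ubiquitin ligase active in S phase) and Mki67 (the Ki-67 antigen) are cell cycle genes, and 4930447C04Rik is the remaining one.

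**Figure D1:**
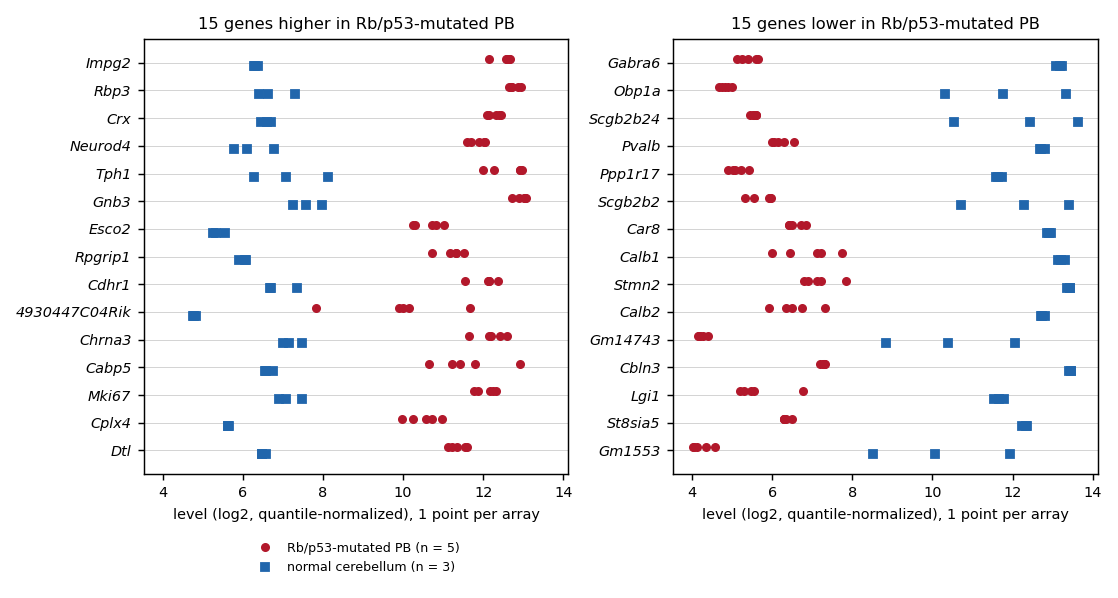
Log2 levels of the 15 genes with the largest difference in each direction, 1 point per array, with Rb/p53-mutated PBs (n = 5) as circles and cerebellum (n = 3) as squares. The groups do not overlap for any of the 30 genes, and the cerebellum arrays are spread widely for Obp1a, Scgb2b24, Scgb2b2, Gm14743 and Gm1553.

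Most transcription factors of photoreceptors and of the pineal were higher in the tumors. The 28 measured include factors of rods, of cones, of the pineal or of several of these. Of the 28, 17 were higher and 1 lower, with a median difference of 1.14 (0.31 as deposited). As deposited, 12 were higher and 7 lower, and leaving out 1 array gave 13 to 18 higher. Neurod4 had levels of 11.61, 12.05, 11.90, 11.70 and 12.01 in Rb/p53-mutated PB1 to PB5, against 6.77, 6.12 and 5.78 in cerebellum 1 to 3. The tumors lay close together, far above cerebellum, a difference of 5.63 ± 0.21 (adjusted p = 2.24e-08). Rxrg, the retinoid X receptor of cones, had levels of 11.71, 11.58, 10.84, 11.04 and 10.33 in Rb/p53-mutated PB1 to PB5, against 6.87, 6.38 and 6.53 in cerebellum 1 to 3, and differed by 4.50 ± 0.29 (adjusted p = 9.26e-07). Bsx, a homeobox factor of the pineal, was even in 4 tumors and lower in PB5, with levels of 11.65, 11.35, 11.42, 11.27 and 9.55 in Rb/p53-mutated PB1 to PB5, against 7.09, 7.02 and 6.95 in cerebellum 1 to 3. Its difference was 4.02 ± 0.41 (adjusted p = 2.33e-05). Otx2 differed by 4.11 ± 0.15, Crx by 5.69 ± 0.11 and the neuroendocrine zinc finger gene Insm1 by 2.65 ± 0.15, each without overlap.

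Other members of the same family were less even or did not pass. Thrb, the thyroid hormone receptor that sets cone opsin choice in mice, had levels of 8.70, 12.08, 11.45, 10.32 and 10.61 in Rb/p53-mutated PB1 to PB5, against 7.43, 7.32 and 7.63 in cerebellum 1 to 3. PB1 was lowest and PB2 highest, so that the difference of 3.17 ± 0.62 (adjusted p = 0.00157) has a wide error. Nrl, the factor that sets rod fate, had levels of 6.94, 8.25, 7.38, 7.79 and 9.48 in Rb/p53-mutated PB1 to PB5, against 6.63, 6.53 and 6.62 in cerebellum 1 to 3. All 5 tumors were above cerebellum, PB1 least and PB5 most, and the difference of 1.38 ± 0.47 did not pass (adjusted p = 0.0281), although it passed without PB1 (1.64, adjusted p = 0.00795). Neurod1 (0.34 ± 0.13, adjusted p = 0.0454) and Pax6 (-0.24 ± 0.14, adjusted p = 0.166), which cerebellar granule neurons also express, did not pass, and their groups overlapped. The retinoic acid-related receptor Rorb, of rods and of the pineal, was higher by 2.19 ± 0.40 (adjusted p = 0.000984).

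Several genes of the rod light response were high in some tumors and close to cerebellum in others. Gnat1, the rod transducin α subunit, had levels of 7.68, 12.06, 9.69, 11.84 and 12.63 in Rb/p53-mutated PB1 to PB5, against 6.59, 6.53 and 6.68 in cerebellum 1 to 3. PB1 was the lowest tumor, PB3 came next, and PB2, PB4 and PB5 were more than 5 log2 units above cerebellum. The difference over all 5 tumors was 4.18 ± 0.99 (adjusted p = 0.0047), and it missed the threshold without PB4 (adjusted p = 0.0122) or without any 1 cerebellum array. Sag, rod arrestin, had levels of 9.40, 11.90, 9.81, 11.66 and 12.37 in Rb/p53-mutated PB1 to PB5, against 7.60, 7.10 and 7.06 in cerebellum 1 to 3, with the same order of tumors and a difference of 3.77 ± 0.65 (adjusted p = 0.000703). The photoreceptor phosphoprotein gene Pdc had levels of 7.46, 9.81, 8.68, 10.06 and 11.47 in Rb/p53-mutated PB1 to PB5, against 5.58, 5.43 and 5.42 in cerebellum 1 to 3. PB1 and PB3 were again lowest.

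Cnga1 and Pde6b, a subunit of the rod cation channel and the β subunit of rod phosphodiesterase, were also lowest in PB1 and next in PB3, and did not pass over 5 tumors (adjusted p = 0.0627 for Cnga1 and 0.0133 for Pde6b). Cnga1 had 4.97, 8.25, 5.99, 7.67 and 9.37 in PB1 to PB5, against 5.13 to 5.39 in cerebellum, with PB1 below cerebellum. Pde6b had 6.50, 8.65, 7.79, 8.98 and 9.99 in PB1 to PB5, against 6.17 to 6.24 in cerebellum. Both passed without PB1 (adjusted p = 0.00707 and 0.000556). Recoverin, Rcvrn, had 6.39, 9.43, 7.17, 9.30 and 10.92 in PB1 to PB5, against 6.56 to 6.67 in cerebellum, so that PB1 lay below cerebellum (2.02 ± 0.88, adjusted p = 0.0701). Rp1, an axonemal protein of the rod outer segment, had 6.99, 9.57, 7.35, 9.54 and 11.17 in the tumors, against 5.16 to 5.58 in cerebellum (3.52 ± 0.84, adjusted p = 0.0048), and missed the threshold without PB2, PB4 or any 1 cerebellum array (adjusted p = 0.0105 to 0.0212). Samd7, a Polycomb-associated rod factor, was among the 10 genes of largest SD over the tumors (of those above the median level), with 7.86, 10.78, 9.25, 10.80 and 12.06 in PB1 to PB5, against 6.15 to 6.26 in cerebellum. Of 22 rod genes, 11 were higher and 1 lower, with a median of 1.95 (1.13 as deposited). On deposited values 8 were higher and 2 lower. Without any 1 cerebellum array 8 were higher, and without PB1 15 were. PB1 was the lowest tumor for 15 of the 22, and PB1 and PB3 were the lowest pair for 15. How often this order occurs over all genes was not counted. The mean level over those 22 genes was 8.28, 9.80, 8.67, 9.32 and 10.06 in PB1 to PB5, against 7.38, 7.22 and 7.21 in cerebellum 1 to 3.

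Several genes used by cones or by both cell types, and some members of the rod list, were high in every tumor, PB1 and PB3 included. Gnb3 had levels of 13.03, 13.01, 12.89, 13.07 and 12.71 in Rb/p53-mutated PB1 to PB5, against 7.99, 7.26 and 7.58 in cerebellum 1 to 3, and differed by 5.34 ± 0.16 (adjusted p = 6.85e-09). Pde6c, the cone phosphodiesterase, had levels of 11.49, 12.14, 11.22, 10.61 and 10.62 in Rb/p53-mutated PB1 to PB5, against 6.55, 6.35 and 6.24 in cerebellum 1 to 3. PB4 and PB5 were lowest, and it differed by 4.84 ± 0.32 (adjusted p = 1.06e-06). The cone transducin gene Gnat2 spanned 10.11 to 10.70 in Rb/p53-mutated PBs and 6.95 to 7.32 in cerebellum (3.31 ± 0.15). Pde6g, the inhibitory γ subunit of rod phosphodiesterase, spanned 12.13 to 12.91 in the tumors and 7.58 to 8.44 in cerebellum, and Rgs9, which speeds the shutoff of transducin in both cell types, spanned 10.83 to 11.77 in the tumors and 7.17 to 7.31 in cerebellum. Although both stand in the rod list, neither was lowest in PB1. The genes named here and above were picked with their values seen, so they do not set all rod genes against all cone genes.

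Not all cone genes were high. Of 15 measured, 7 were higher and 2 lower, and the median of 0.45 stood at -0.21 as deposited. On deposited values 5 were higher and 5 lower. PB1 was the lowest tumor for 5 of the 15, and PB1 and PB3 were the lowest pair for 4. The mean level over the 15 was also lowest in PB1, with 8.29, 8.67, 8.38, 8.35 and 8.48 in PB1 to PB5. Pde6h, the cone γ subunit, was at 7.002 to 7.41 in Rb/p53-mutated PBs and 6.995 to 7.12 in cerebellum, and did not pass (adjusted p = 0.238). The short-wave opsin Opn1sw was only slightly above cerebellum (0.38 ± 0.10, adjusted p = 0.00909), stood at -0.32 as deposited, and missed the threshold without any 1 of 7 arrays. Structural genes of the photoreceptor were higher more often. Of 44 genes of its cilium, outer segment and matrix, 30 were higher and 6 lower (median 1.53, and 0.61 as deposited). On deposited values 19 were higher and 16 lower, so this lean depends largely on the scaling.

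**Figure D2:**
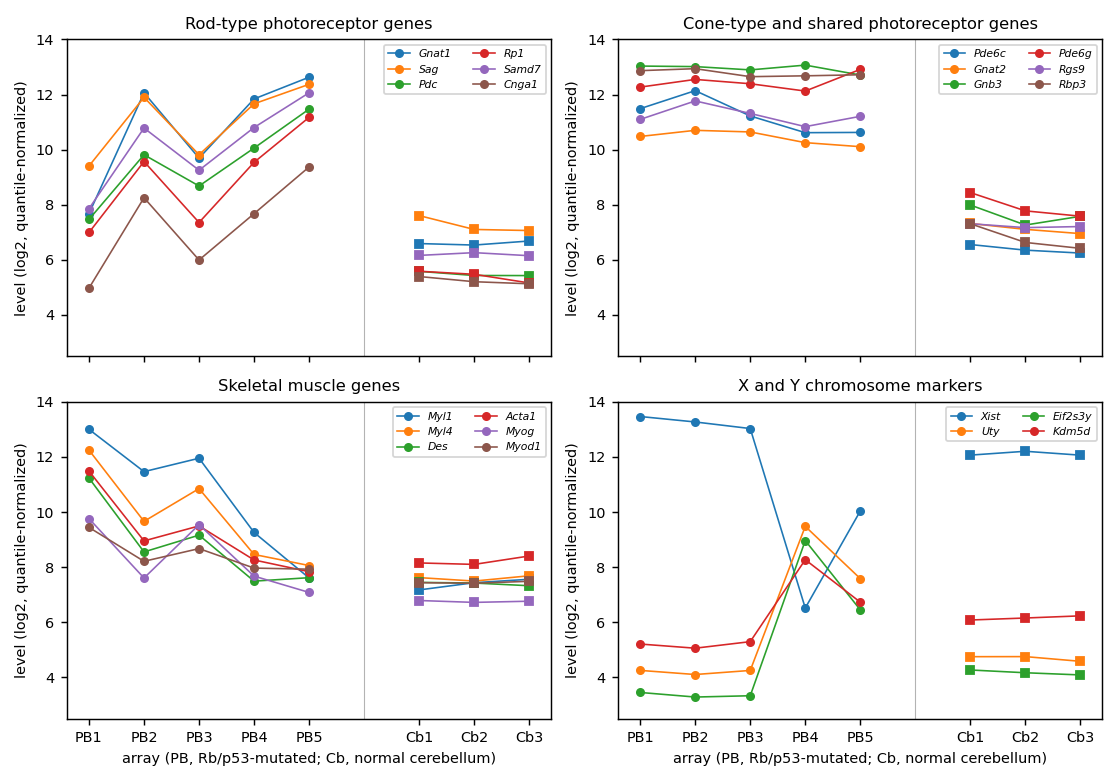
Log2 levels by array (lines only link the points of a gene) for rod-type, cone-type or shared photoreceptor, skeletal muscle and X- or Y-linked genes, with Rb/p53-mutated PB1 to PB5 at the left of each panel and cerebellum 1 to 3 at the right. The plotted rod genes, picked with their values seen, are lowest in PB1 and PB3, as are 15 of the 22 rod genes, and the plotted muscle genes are highest there, whereas Gnb3 spans only 12.71 to 13.07 over the tumors. PB4 and PB5 are the tumors with high Y-linked genes.

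The promoters of these genes can be set beside their levels. Windows of 250 bases before to 50 bases after the start were taken from the RefSeq table (GRCm38.p6), and the core letters of a CRX or OTX site, TAATCC, were searched on both strands. The letters occurred in 7.06% of all 32851 windows. Of the 17 windows of rod genes 8 held them (47.1%), of the 50 windows of cilium, outer segment and matrix genes 9 (18.0%), of the 38 windows of photoreceptor and pineal transcription factors 5 (13.2%) and of the 11 windows of cone genes 1 (9.09%). By comparison, 2 of 17 windows of Purkinje cell markers (11.8%), 3 of 31 of BRCA and Fanconi genes (9.68%) and 2 of 23 of granule neuron markers (8.70%) held them. The letters stood in 0 of 16 windows of glutamate receptor genes, 0 of 42 of licensing and fork genes and 0 of 48 of mitotic genes. The shares of the cone and transcription factor lists were thus close to that of Purkinje cell markers. Among the 15 leading genes 12 had a window. The 200 bases before the start are shown for 4 leading genes and 1 rod gene that hold the letters, which are in capitals, 5′ to 3′ on the strand of the gene. Crx lies at chr7:15879956-15880155, minus strand, Rbp3 at chr14:33953803-33954002, plus strand, Rpgrip1 at chr14:52110703-52110902, plus strand, Cabp5 at chr7:13397955-13398154, plus strand and Sag at chr1:87803480-87803679, plus strand.
Crx: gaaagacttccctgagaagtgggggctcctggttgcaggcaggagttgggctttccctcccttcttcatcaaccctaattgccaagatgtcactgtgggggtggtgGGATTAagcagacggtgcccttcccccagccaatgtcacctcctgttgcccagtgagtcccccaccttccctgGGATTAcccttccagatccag
Rbp3: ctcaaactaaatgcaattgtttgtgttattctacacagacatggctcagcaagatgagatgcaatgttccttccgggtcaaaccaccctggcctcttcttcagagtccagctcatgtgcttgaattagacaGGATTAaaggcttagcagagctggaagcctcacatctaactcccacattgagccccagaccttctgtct
Rpgrip1: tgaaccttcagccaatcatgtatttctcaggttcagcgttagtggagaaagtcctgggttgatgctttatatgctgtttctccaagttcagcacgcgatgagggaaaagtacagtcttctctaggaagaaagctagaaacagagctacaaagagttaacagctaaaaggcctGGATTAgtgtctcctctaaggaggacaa
Cabp5: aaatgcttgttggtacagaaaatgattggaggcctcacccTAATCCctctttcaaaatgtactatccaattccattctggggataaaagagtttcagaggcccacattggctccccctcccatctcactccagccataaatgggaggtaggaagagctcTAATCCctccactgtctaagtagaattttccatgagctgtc
Sag: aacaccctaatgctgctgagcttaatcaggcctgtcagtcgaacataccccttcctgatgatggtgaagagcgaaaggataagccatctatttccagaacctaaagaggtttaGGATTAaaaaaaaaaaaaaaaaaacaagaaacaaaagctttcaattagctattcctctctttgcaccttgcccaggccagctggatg
The letters begin 94 and 21 bases before the start in Crx, 69 in Rbp3, 28 in Rpgrip1, 160 and 41 in Cabp5 and 87 in Sag. A gene can have several starts, and the windows shown are ones that hold the letters. The windows of Crx and Rbp3 adjoin the outer end of the annotated gene. Those of Rpgrip1 and Cabp5 lie inside it, as the annotated genes begin at 52104241 and 13385960. Of these 5 genes, Sag was uneven over the tumors and the others were high in all 5. A match of 6 letters is a description of the sequence and does not show binding.

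Of 14 genes of the melatonin pathway, 4 were higher (28.6%) and 4 lower (28.6%), shares near those over all genes, with a median of -0.06. As deposited, 2 were higher and 10 lower (median -0.80). Tph1 had levels of 12.96, 12.27, 12.91, 12.91 and 11.98 in Rb/p53-mutated PB1 to PB5, against 8.12, 7.08 and 6.27 in cerebellum 1 to 3. Cerebellum 1 was the highest of the 3, and the groups stood 5.45 ± 0.39 apart (adjusted p = 1.8e-06). Pcbd1, which regenerates the cofactor of tryptophan hydroxylase, was higher by 2.39 ± 0.09, and Ddc, the decarboxylase that makes serotonin, by 1.97 ± 0.43 (adjusted p = 0.0028). Ddc was lowest in PB5, with levels of 10.12, 10.09, 9.44, 9.09 and 7.98, and missed the threshold without any 1 cerebellum array (adjusted p = 0.0115 to 0.0125).

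Aanat, the nocturnal enzyme that sets the rate of melatonin synthesis, spanned 7.01 to 7.34 in the tumors and 6.93 to 6.99 in cerebellum, and did not pass (0.18 ± 0.09, adjusted p = 0.0966). Slc18a1, a vesicular monoamine transporter, did not pass either (-0.02 ± 0.10, adjusted p = 0.904). Maoa, which breaks serotonin down, had levels of 7.29, 7.19, 7.23, 7.23 and 6.99 in Rb/p53-mutated PB1 to PB5, against 9.05, 9.12 and 9.18 in cerebellum 1 to 3, and was lower (-1.93 ± 0.09, adjusted p = 8.37e-08).

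Of 20 genes of pinealocyte receptors and signalling 6 were higher (30.0%) and 6 lower (30.0%), shares near those over all genes, and as deposited 4 were higher and 12 lower. Without any 1 cerebellum array 3 were lower. Chrna3 and Chrnb4, the α3 and β4 subunits of a ganglionic-type nicotinic receptor whose genes are neighbours, were higher by 4.98 ± 0.20 and 4.36 ± 0.14. Chrnb4 had levels of 12.83, 12.53, 12.45, 12.95 and 12.60 in Rb/p53-mutated PB1 to PB5, against 8.58, 8.17 and 8.19 in cerebellum 1 to 3. Adcyap1r1, the PACAP receptor, was lower (-2.60 ± 0.15).

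Genes of cell division were higher in nearly every list. Rb1 itself averaged 10.17 ± 0.22 in Rb/p53-mutated PBs (SD, n = 5), against 10.03 ± 0.05 in cerebellum (SD, n = 3), with overlap, and did not pass (0.14 ± 0.12, adjusted p = 0.342). Its probes are spread over the transcript, so this value does not check the deletion. The transcript of the p53 gene was not analysed here. Of 20 G1 cyclin, kinase and E2F genes, 15 were higher and 1 lower (median 1.39, and 0.32 as deposited). On deposited values 8 were higher and 5 lower. E2f1 had levels of 10.90, 10.92, 11.17, 11.34 and 10.95 in Rb/p53-mutated PB1 to PB5, against 7.58, 7.48 and 7.50 in cerebellum 1 to 3. No tumor came within 3 log2 units of cerebellum, and the difference was 3.54 ± 0.11 (adjusted p = 1.01e-08). The atypical repressors E2f8 and E2f7 were higher by 3.997 ± 0.21 and 2.80 ± 0.16, and Cdk2, the partner of cyclins E and A, by 3.29 ± 0.11. Cdk4 was higher by 1.58 ± 0.08 and spanned only 12.69 to 12.91 over the tumors.

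The D-type cyclins, which bring CDK4 to the retinoblastoma protein, split. Ccnd2 was higher, with levels of 10.24, 10.51, 10.61, 10.51 and 10.41 in Rb/p53-mutated PB1 to PB5, against 8.47, 8.40 and 8.37 in cerebellum 1 to 3, whereas Ccnd1 was lower, with levels of 8.76, 7.997, 8.33, 8.66 and 8.63 in Rb/p53-mutated PB1 to PB5, against 9.31, 9.52 and 9.16 in cerebellum 1 to 3. The differences were 2.04 ± 0.09 and -0.86 ± 0.17 (adjusted p = 0.00193 for Ccnd1, which missed the threshold without cerebellum 2 at 0.0122). The pocket protein genes split too, as the E2F target Rbl1 (p107) was higher by 2.73 ± 0.14 and Rbl2 (p130), typical of resting cells, was lower (-0.49 ± 0.10). Of the 7 CDK inhibitor genes measured, Cdkn2a, whose products p16INK4a and p19ARF act on CDK4 and on MDM2, was higher by 2.22 ± 0.15, with levels of 9.43, 9.01, 9.59, 9.63 and 9.18 in Rb/p53-mutated PB1 to PB5, against 7.07, 7.31 and 7.06 in cerebellum 1 to 3. Cdkn2c (p18) was higher by 2.35 ± 0.16, Cdkn1b (p27) did not pass (0.11 ± 0.10) and Cdkn2d (p19INK4d) was lower (-0.99 ± 0.10).

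Genes of replication and repair were higher almost throughout. Of 42 origin licensing and replication fork genes 38 were higher and 0 lower (median 1.95, and 0.94 as deposited). Of 35 BRCA, Fanconi and recombination genes 32 were higher and 0 lower (median 1.70, and 0.83 as deposited). On deposited values 27 were higher and 6 lower in the former list, and 22 and 5 in the latter. Pole, the leading-strand polymerase subunit, had levels of 10.57, 10.91, 10.65, 10.74 and 10.83 in Rb/p53-mutated PB1 to PB5, against 6.73, 6.65 and 6.57 in cerebellum 1 to 3, and the helicase subunits Mcm6 and Mcm3 were higher by 3.83 ± 0.15 and 3.46 ± 0.11. The flap endonuclease Fen1 was an exception, with levels of 8.73, 8.04, 8.35, 8.47 and 7.998 in Rb/p53-mutated PB1 to PB5, against 8.42, 8.19 and 8.37 in cerebellum 1 to 3 and a difference of -0.01 ± 0.17 (adjusted p = 0.971). Of 51 kinetochore, spindle and mitotic kinase genes 49 were higher and 1 lower, with a median of 3.23 (2.40 as deposited). The spindle motor gene Kif11 had levels of 11.09, 10.82, 11.21, 11.03 and 10.69 in Rb/p53-mutated PB1 to PB5, against 6.47, 6.59 and 6.17 in cerebellum 1 to 3. Esco2 had levels of 10.71, 10.26, 11.02, 10.83 and 10.30 in Rb/p53-mutated PB1 to PB5, against 5.33, 5.56 and 5.25 in cerebellum 1 to 3. Both were lowest in PB2 and PB5 among the tumors, and still more than 4 log2 units above every cerebellum array.

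Windows of these genes were searched for E2F-type letters (TTTGGCGC, TTTCCCGC, TTTGCCGC and TTTCGCGC, on both strands) and for the core of the cell cycle homology region (TTTGAA, on both strands), an element of genes expressed in G2 and mitosis. E2F-type letters stood in 2.26% of all windows, in 14 of 42 windows of licensing and fork genes (33.3%), in 7 of 21 of G1 and E2F genes (33.3%), in 8 of 31 of BRCA and Fanconi genes (25.8%) and in 3 of 48 of mitotic genes (6.25%). TTTGAA stood in 17.9% of all windows, in 31 of 48 windows of mitotic genes (64.6%) and in 5 of 42 of licensing and fork genes (11.9%). No window of the rod, cone or photoreceptor and pineal transcription factor genes held E2F-type letters. They stood in 1 of 50 windows of cilium, outer segment and matrix genes (2.0%), 0 of 23 of granule neuron markers and 1 of 17 of Purkinje cell markers (5.88%). At a share of 2.26% over all windows, lists this short can hold 0 without being set apart. The 200 bases before the start are shown for 2 genes of each kind and for Mki67. Mcm6 lies at chr1:128359706-128359905, minus strand, Mycn at chr12:12941837-12942036, minus strand, Top2a at chr11:99024190-99024389, minus strand, Kif11 at chr19:37376182-37376381, plus strand and Mki67 at chr7:135716380-135716579, minus strand (GRCm38.p6, RefSeq), with E2F-type letters in capitals for Mcm6 and Mycn (in each, 1 run of capitals holds an overlapping pair, TTTGGCGC and the reverse of TTTCGCGC) and the cell cycle homology letters in capitals for the others.
Mcm6: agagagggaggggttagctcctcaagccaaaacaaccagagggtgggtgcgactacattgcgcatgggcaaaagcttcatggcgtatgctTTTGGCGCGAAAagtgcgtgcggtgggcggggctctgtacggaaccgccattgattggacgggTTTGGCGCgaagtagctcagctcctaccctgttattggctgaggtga
Mycn: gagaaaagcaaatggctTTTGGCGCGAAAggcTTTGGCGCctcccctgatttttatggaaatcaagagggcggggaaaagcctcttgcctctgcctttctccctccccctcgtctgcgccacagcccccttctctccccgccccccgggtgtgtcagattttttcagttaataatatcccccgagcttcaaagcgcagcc
Top2a: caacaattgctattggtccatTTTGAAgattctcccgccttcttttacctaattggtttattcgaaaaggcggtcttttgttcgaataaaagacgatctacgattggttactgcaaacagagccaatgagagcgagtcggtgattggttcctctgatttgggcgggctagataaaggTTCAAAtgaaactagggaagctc
Kif11: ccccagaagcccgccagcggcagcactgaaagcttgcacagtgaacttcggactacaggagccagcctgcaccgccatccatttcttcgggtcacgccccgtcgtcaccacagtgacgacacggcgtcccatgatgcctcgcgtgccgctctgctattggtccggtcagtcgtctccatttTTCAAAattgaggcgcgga
Mki67: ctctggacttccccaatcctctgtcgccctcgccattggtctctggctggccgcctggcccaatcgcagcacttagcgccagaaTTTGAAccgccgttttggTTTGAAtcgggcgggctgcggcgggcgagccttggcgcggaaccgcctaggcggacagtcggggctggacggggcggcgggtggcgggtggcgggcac
The window of Mki67 overlaps the annotated gene, which ends at 135716450. Top2a, the DNA topoisomerase of mitotic chromosomes, was higher by 4.38 ± 0.20, and Mki67 by 4.93 ± 0.16.

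Mycn had levels of 11.09, 12.003, 11.79, 11.60 and 12.26 in Rb/p53-mutated PB1 to PB5, against 7.85, 7.60 and 7.91 in cerebellum 1 to 3. PB1 was lowest and PB5 highest, and all 5 were more than 3 log2 units above cerebellum (3.96 ± 0.23, adjusted p = 4.41e-07). Myc was higher by less and less evenly (2.09 ± 0.34, adjusted p = 0.000497), with 10.19, 8.95, 10.20, 10.62 and 9.69 in PB1 to PB5, against 7.60, 8.29 and 7.64 in cerebellum 1 to 3. Max, the shared partner of both, was lower (-0.75 ± 0.08). Of 12 genes of the MYC, MAX and MXD network 6 were higher and 3 lower (median 0.49). As deposited, 1 was higher and 9 were lower (median -0.59). Of 11 LIN28 and oncofetal genes 4 were higher, 1 was lower and 6 missed the threshold (median 0.25). As deposited, 3 were higher and 6 lower (median -0.83). Dlk1, an imprinted ligand-like protein of fetal tissue, was higher by 3.001 ± 0.36, and Lin28b, which blocks let-7 processing, by 2.15 ± 0.18. Igf2 ranged widely, with levels of 12.06, 10.25, 11.76, 9.51 and 8.95 in Rb/p53-mutated PB1 to PB5, against 10.15, 10.13 and 9.94 in cerebellum 1 to 3, and did not pass (adjusted p = 0.586).

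Of 32 targets of p53 measured, 10 were higher (31.2%) and 7 lower (21.9%), shares near those over all genes, with a median of 0.27. As deposited, 3 were higher and 21 lower (median -0.66). Ckap2, a spindle protein, was higher by 3.70 ± 0.20. Btg2, an antiproliferative factor, averaged 11.03 ± 0.04 in Rb/p53-mutated PBs (SD, n = 5), against 8.72 ± 0.07 in cerebellum (SD, n = 3). The tumors lay within 0.1 of each other, 2.31 ± 0.07 above cerebellum (adjusted p = 8.07e-09). Pidd1, the death-domain protein of the PIDDosome, was higher by 2.31 ± 0.15, whereas the epoxide hydrolase gene Ephx1 and the RNA-binding gene Zmat3 were lower (-2.36 ± 0.24 and -1.36 ± 0.14). Mdm2, the ubiquitin ligase for p53, was slightly higher (0.52 ± 0.12, adjusted p = 0.00467), stood at -0.67 as deposited, and missed the threshold with median centring (adjusted p = 0.138) or without any 1 cerebellum array. In the BCL2 family 5 of 15 genes were higher and 2 lower, and 3 were higher without any 1 cerebellum array. The pro-apoptotic Bcl2l11 (BIM) was higher by 1.003 ± 0.10, at 0.03 as deposited, and the survival gene Bcl2l2 (BCL-W) lower (-1.07 ± 0.08).

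Among 28 Polycomb and DNA methylation genes 19 were higher and 2 lower (median 0.93, which stood at -0.17 as deposited). On deposited values 7 were higher and 11 lower. Uhrf1, which brings DNMT1 to replicating DNA, was higher by 3.16 ± 0.14. Ezh2, the histone H3 lysine methyltransferase of dividing cells, had levels of 11.66, 11.78, 11.90, 11.99 and 11.63 in Rb/p53-mutated PB1 to PB5, against 10.27, 10.28 and 10.27 in cerebellum 1 to 3, and Ezh1, its counterpart in resting cells, had levels of 9.42, 9.55, 9.43, 9.41 and 9.66 in Rb/p53-mutated PB1 to PB5, against 10.48, 10.37 and 10.38 in cerebellum 1 to 3. Ezh2 was higher by 1.52 ± 0.10 and Ezh1 lower, at a difference of -0.91 ± 0.09.

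**Figure D3:**
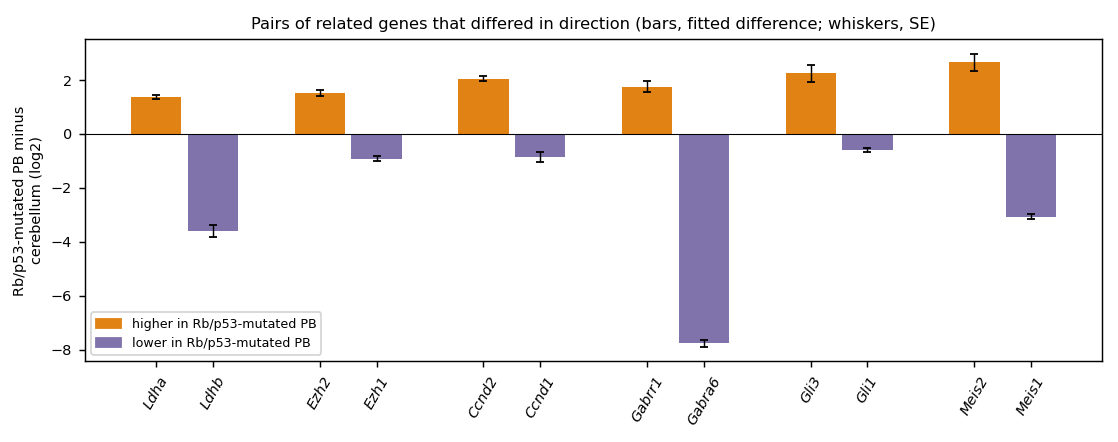
Rb/p53-mutated PB minus cerebellum (log2, bars, with the SE as whiskers; 5 tumors and 3 cerebellum arrays) for 6 pairs of related genes chosen after their values were seen, the higher member left of the lower. The widest split is that of the GABA receptor subunits Gabrr1 (1.75) and Gabra6 (-7.76).

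The study followed lysosomes and autophagy under a tricyclic drug. Of 31 lysosomal membrane and proton pump genes 5 were higher and 19 lower (median -0.73, and -1.88 as deposited). The pump subunit Atp6v1g2, the neuronal form, had levels of 10.14, 10.53, 10.57, 10.61 and 10.09 in Rb/p53-mutated PB1 to PB5, against 13.07, 12.89 and 12.87 in cerebellum 1 to 3. All 5 tumors were over 2 log2 units below cerebellum (-2.56 ± 0.14, adjusted p = 3.15e-07). Atp6v1c1 was lower (-2.29 ± 0.14), whereas Atp6v0d2 was higher by 1.85 ± 0.13 and the Batten disease gene Cln3 by 1.69 ± 0.14. The membrane proteins Lamp1 and Lamp2 stood on either side of the threshold. Lamp1 had levels of 11.34, 11.03, 11.23, 11.18 and 11.03 in Rb/p53-mutated PB1 to PB5, against 11.49, 11.47 and 11.51 in cerebellum 1 to 3, did not pass (-0.33 ± 0.09, adjusted p = 0.0105) and passed without PB1 (adjusted p = 0.00376). Lamp2 was higher by 0.84 ± 0.10 and stood at -0.28 as deposited.

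Of 37 lysosomal hydrolase genes 10 were higher (27.0%) and 10 lower (27.0%), shares near those over all genes (median -0.14). With median centring 6 were higher and 12 lower, and as deposited 1 and 30 (median -1.28). Psap, the precursor of the saposins, was lower (-1.44 ± 0.09) and the cathepsin gene Ctsb (-0.60 ± 0.10), whereas Ctsc was higher by 2.05 ± 0.25. Of 35 autophagy genes 2 were higher and 17 lower (median -0.42, and -1.63 as deposited), and without cerebellum 2 none was higher. Gabarapl1, an ATG8 homologue of the autophagosome membrane, had levels of 10.09, 10.95, 10.28, 9.97 and 10.26 in Rb/p53-mutated PB1 to PB5, against 12.08, 11.995 and 12.09 in cerebellum 1 to 3. Gabarapl2 was lower (-1.56 ± 0.08) and the cargo receptor Sqstm1 (p62) (-1.05 ± 0.12). Map1lc3b, the LC3 gene used to follow autophagy, did not pass (-0.22 ± 0.11, adjusted p = 0.0962).

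Of 44 genes of oxidative phosphorylation, 29 were lower, 1 was higher and 14 missed the threshold (median -0.71, and -1.63 as deposited). Ndufa4 was lower (-1.78 ± 0.15) and the complex II subunit Sdha (-1.54 ± 0.10). The one higher gene was Cox6a2, the heart and muscle form of a cytochrome oxidase subunit, with levels of 9.93, 8.85, 9.12, 8.77 and 9.41 in Rb/p53-mutated PB1 to PB5, against 7.93, 7.88 and 7.97 in cerebellum 1 to 3, highest in PB1. Of 25 glucose transport and glycolysis genes 13 were lower, 3 were higher and 9 missed it (median -0.59, and -1.51 as deposited). Slc2a3, the neuronal glucose transporter, had levels of 6.81, 6.95, 6.82, 6.99 and 6.74 in Rb/p53-mutated PB1 to PB5, against 11.46, 11.27 and 11.29 in cerebellum 1 to 3, and Aldoc and Eno2, the brain forms of aldolase and enolase, were lower (-4.71 ± 0.25 and -3.94 ± 0.18). The lactate dehydrogenase subunits split, with Ldha at 13.25, 13.41, 13.30, 13.34 and 13.30 in Rb/p53-mutated PB1 to PB5, against 12.05, 11.99 and 11.84 in cerebellum 1 to 3, and Ldhb at 7.65, 8.76, 8.49, 8.36 and 8.08 in Rb/p53-mutated PB1 to PB5, against 11.91, 11.82 and 11.88 in cerebellum 1 to 3. Ldha was higher by 1.36 ± 0.08 and Ldhb lower (-3.60 ± 0.21), both without overlap.

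Markers of cerebellar neurons were lower in nearly every case. Of 20 granule neuron markers 0 were higher and 17 lower (median -2.77, and -3.97 as deposited), and of 16 Purkinje cell markers 0 were higher and 15 lower (median -3.06). Cbln3, a granule cell synaptic organizer, had levels of 7.19, 7.31, 7.28, 7.30 and 7.29 in Rb/p53-mutated PB1 to PB5, against 13.46, 13.40 and 13.46 in cerebellum 1 to 3. Neither group varied by more than 0.2, and the difference was -6.17 ± 0.07 (adjusted p = 1.3e-10). Ppp1r17, a phosphatase inhibitor of Purkinje cells, had levels of 4.90, 5.03, 5.22, 5.08 and 5.42 in Rb/p53-mutated PB1 to PB5, against 11.62, 11.59 and 11.74 in cerebellum 1 to 3, a difference of -6.52 ± 0.12. Calb1, the Purkinje calcium buffer, was uneven over the tumors, with 7.11, 5.98, 7.73, 7.22 and 6.45 in PB1 to PB5, against 13.13 to 13.30 in cerebellum (-6.32 ± 0.34). The related calcium buffer Calb2 (-6.19 ± 0.25), the growth cone protein gene Stmn2 (-6.24 ± 0.21), the secreted synaptic gene Lgi1 (-6.01 ± 0.32) and the ganglioside sialyltransferase gene St8sia5 (-5.96 ± 0.08) were lower by similar amounts.

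Most receptor and channel genes of neurons were lower as well. Of 22 glutamate receptor subunits 0 were higher and 18 lower (median -1.96), led by the AMPA receptor genes Gria4 (-5.65 ± 0.14) and Gria2 (-4.52 ± 0.32). Of 38 voltage-gated channels 5 were higher and 28 lower (median -1.88), and without any 1 cerebellum array 3 were higher. Of 20 GABA and glycine receptor subunits 7 were higher and 12 lower (median -2.54). Gabra6, which only granule neurons express strongly, had levels of 5.24, 5.13, 5.41, 5.60 and 5.66 in Rb/p53-mutated PB1 to PB5, against 13.09, 13.18 and 13.23 in cerebellum 1 to 3, and Gabrb2 was lower (-4.49 ± 0.34). By contrast Gabrr1, a ρ subunit of the retinal GABA receptor, had levels of 8.39, 8.47, 8.83, 7.71 and 8.28 in Rb/p53-mutated PB1 to PB5, against 6.59, 6.48 and 6.68 in cerebellum 1 to 3. Gabrr1 was higher by 1.75 ± 0.21, Gabrr2 by 1.63 ± 0.43 (adjusted p = 0.00842, and 0.0155 to 0.0313 without PB2, PB4 or any 1 cerebellum array) and the glycine receptor gene Glra3 by 2.04 ± 0.15.

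A like split was seen among synaptic genes, of which 5 of 32 were higher and 22 lower (median -1.42), with 3 higher without cerebellum 1 or cerebellum 2. Cplx4 and Cplx3, the complexins of photoreceptor and other ribbon synapses, were higher by 4.86 ± 0.20 and 3.66 ± 0.13. Cplx4 had levels of 9.96, 10.73, 10.25, 10.57 and 10.97 in Rb/p53-mutated PB1 to PB5, against 5.65, 5.63 and 5.62 in cerebellum 1 to 3. Stx3, the syntaxin of ribbon synapses, was higher by 1.58 ± 0.15. Conventional terminal genes were lower, with the active zone gene Rims1 at -4.24 ± 0.08, the synapsin Syn2 at -3.95 ± 0.08 and the GABA-synthesizing enzyme Gad1 at -5.25 ± 0.14. Syp, synaptophysin, had levels of 12.07, 12.12, 11.99, 11.97 and 12.13 in Rb/p53-mutated PB1 to PB5, against 12.26, 12.15 and 12.12 in cerebellum 1 to 3. The groups overlapped and Syp did not pass (-0.12 ± 0.08, adjusted p = 0.195).

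Receptors and transporters that tricyclic drugs bind were also listed. Of 22 measured, 4 were higher and 10 lower (median -0.25). Without any 1 cerebellum array 2 were higher, and 4 were lower without cerebellum 1 or cerebellum 3. With median centring 4 were higher and 4 lower, and as deposited 1 and 16. The muscarinic receptor Chrm3 was higher by 2.27 ± 0.27 and the histamine receptor Hrh3 lower (-2.06 ± 0.10).

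**Figure D4:**
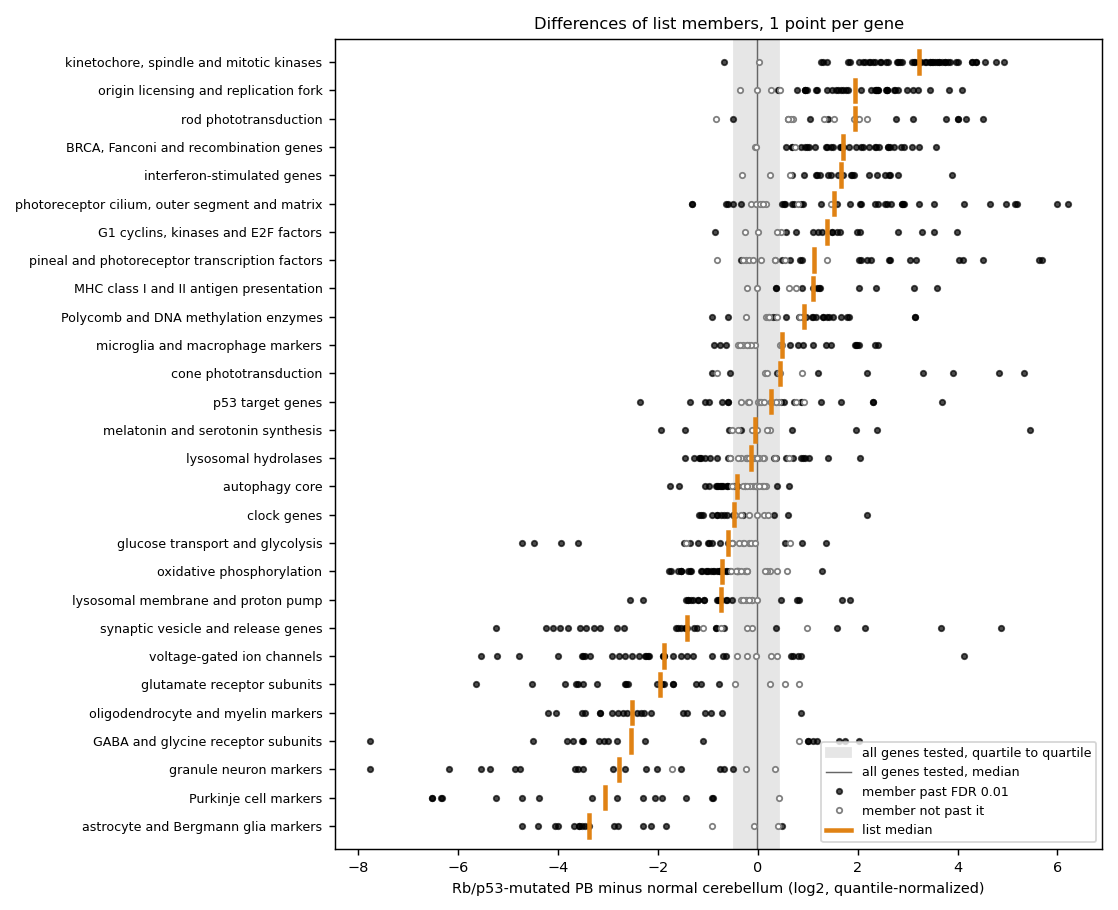
Rb/p53-mutated PB minus cerebellum (log2) for each measured member of 28 lists, filled where it passed FDR 0.01, with the list median as a bar and the range between the quartiles of all 19938 genes in grey. Mitotic genes stand highest (median 3.23, and 2.40 as deposited) and astrocyte markers lowest (median -3.37); as deposited the median of all genes stands at -0.92.

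Most glial markers were lower too. Of 20 oligodendrocyte and myelin markers 1 was higher and 19 lower (median -2.52), with the myelin adhesion gene Mag at -4.19 ± 0.18 and the glial connexin Gjc3 at -4.03 ± 0.34. The higher one was Cspg4 (NG2), of oligodendrocyte precursors and pericytes (0.87 ± 0.19, adjusted p = 0.00254), which stood at -0.10 as deposited and missed the threshold without cerebellum 2 or cerebellum 3 (0.0142 and 0.0107). Of 19 astrocyte and Bergmann glia markers 1 was higher and 15 lower (median -3.37). S100b was lower (-4.39 ± 0.13) and the Bergmann glia glutamate transporter Slc1a3 (-4.06 ± 0.23). The astrocyte transporter Slc1a2, which photoreceptors also make, had levels of 11.97, 12.16, 11.98, 12.06 and 11.96 in Rb/p53-mutated PB1 to PB5, against 11.49, 11.45 and 11.70 in cerebellum 1 to 3. It was higher by 0.48 ± 0.09 after quantile normalization and lower as deposited (-0.51). Gfap did not pass (-0.91 ± 0.27, adjusted p = 0.0149), with 8.12, 8.94, 7.65, 8.23 and 8.85 in PB1 to PB5, against 9.39, 9.10 and 9.31 in cerebellum 1 to 3, and passed without PB2 or without PB5 (0.00485 and 0.00806). Nes, nestin, did not pass (0.60 ± 0.27, adjusted p = 0.0792) and was highest in PB1.

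On the microglia and macrophage list, 12 of 25 genes were higher and 3 lower, while 10 missed the threshold, with a median of 0.50. As deposited, 5 were higher and 12 lower (median -0.33). The Fc receptor γ chain Fcer1g had levels of 11.03, 10.90, 10.63, 10.99 and 11.54 in Rb/p53-mutated PB1 to PB5, against 8.57, 8.72 and 8.56 in cerebellum 1 to 3, the complement gene C1qb was higher by 2.35 ± 0.15, the lysosomal glycoprotein gene Cd68 by 2.02 ± 0.17 and the myeloid transcription factor gene Spi1 (PU.1) by 1.97 ± 0.19. All 4 were highest in PB5. The 3 lower markers were P2ry12 (-0.87 ± 0.10), Gpr34 (-0.75 ± 0.12) and Csf1r (-0.64 ± 0.10), and P2ry12 had levels of 6.96, 6.77, 6.97, 6.71 and 7.03 in Rb/p53-mutated PB1 to PB5, against 7.72, 7.64 and 7.92 in cerebellum 1 to 3.

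Most antigen presentation and interferon genes were higher. Of 15 MHC class I and II genes 11 were higher and 0 lower (median 1.11, and -0.03 as deposited). Of 22 interferon-stimulated genes 19 were higher and 0 lower (median 1.66, and 0.82 as deposited). On deposited values 5 MHC genes were higher and 4 lower, and 13 interferon genes were higher and 2 lower. Leaving out 1 array gave 8 to 12 MHC genes higher. Cd74, the class II invariant chain, had levels of 10.91, 10.77, 11.30, 11.75 and 11.91 in Rb/p53-mutated PB1 to PB5, against 7.63, 8.04 and 7.55 in cerebellum 1 to 3, and the class II genes H2-Aa and H2-Ab1 were higher by 3.12 ± 0.27 and 2.36 ± 0.27. The peptide transporter Tap1 was higher by 2.04 ± 0.25. Cxcl10, an interferon-induced chemokine, had levels of 11.26, 9.98, 11.36, 11.26 and 11.12 in Rb/p53-mutated PB1 to PB5, against 7.05, 7.15 and 7.14 in cerebellum 1 to 3, lowest in PB2. Irf7, which drives type I interferon genes, was higher by 2.81 ± 0.18, Usp18 by 2.65 ± 0.20 and Ifit1 by 2.56 ± 0.30. For Irf7, Usp18 and Ifit1, PB1 was highest and PB2 lowest of the tumors.

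Of 28 endothelial and pericyte markers 8 were lower (28.6%) and 3 higher (10.7%), and 17 missed the threshold (median -0.13, and -1.13 as deposited). The blood-brain barrier transporters Slco1c1 and Slco1a4 were lower (-2.90 ± 0.08 and -2.52 ± 0.33), whereas smooth muscle actin, Acta2, had levels of 11.82, 9.74, 10.93, 10.68 and 11.86 in Rb/p53-mutated PB1 to PB5, against 8.60, 8.48 and 8.30 in cerebellum 1 to 3. Of 37 collagen and mesenchymal genes 9 were higher (24.3%) and 7 lower (18.9%), and 21 missed the threshold (median 0.38), and as deposited 1 was higher and 21 lower (median -0.59). Col8a1 was higher by 3.13 ± 0.48, with 11.92, 10.15, 12.02, 10.45 and 10.01 in PB1 to PB5, against 7.62 to 7.94 in cerebellum. Col10a1, typical of hypertrophic cartilage, was higher by 2.49 ± 0.56 (adjusted p = 0.00333), with PB1 highest at 11.37, 8.92, 9.50, 8.72 and 8.57 in PB1 to PB5, against 6.84 to 6.98 in cerebellum, and missed the threshold without any 1 cerebellum array (0.0135 to 0.0143).

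Regional factors were also listed. Of 30 hindbrain and cerebellar homeobox and ZIC genes 4 were higher and 12 lower. Zic1, of granule cell precursors, had levels of 10.62, 9.14, 9.35, 8.95 and 8.39 in Rb/p53-mutated PB1 to PB5, against 12.99, 12.90 and 12.95 in cerebellum 1 to 3, lower (-3.66 ± 0.40) and highest in PB1 among the tumors. Meis1 was lower (-3.07 ± 0.09), whereas its relative Meis2 was higher by 2.66 ± 0.31 and the dorsal neural tube gene Pax3 by 2.11 ± 0.16. In the hedgehog pathway 6 of 20 genes were higher and 11 lower (7 lower without cerebellum 2). The receptor and target Ptch1 (-1.07 ± 0.11) and the target Gli1 (-0.59 ± 0.07) were lower, and Gli2 (1.79 ± 0.24) and Gli3 (2.25 ± 0.33) were higher. Of 20 clock genes 3 were higher and 11 lower (median -0.47, and -1.65 as deposited), with 1 higher without any 1 cerebellum array. Dbp, an output gene of the clock, was lower (-1.09 ± 0.12), and the repressor gene Bhlhe40 (-1.18 ± 0.14). Times of tissue collection are not in the labels.

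Besides the rod genes above, the tumors differed widely from each other in genes of skeletal muscle. Myl1, a fast myosin light chain, had levels of 13.002, 11.47, 11.95, 9.26 and 7.61 in Rb/p53-mutated PB1 to PB5, against 7.17, 7.43 and 7.56 in cerebellum 1 to 3. PB1 was more than 5 log2 units above PB5, which was within 0.1 of the highest cerebellum array. Myl4, the atrial and embryonic light chain, had 12.25, 9.66, 10.85, 8.46 and 8.06 in PB1 to PB5, against 7.49 to 7.68 in cerebellum, and the intermediate filament gene Des had 11.23, 8.55, 9.16, 7.49 and 7.61 in PB1 to PB5, against 7.32 to 7.44 in cerebellum. Skeletal actin, Acta1, had 11.49, 8.95, 9.50, 8.26 and 7.83 in PB1 to PB5, against 8.10 to 8.40 in cerebellum. These 4 were among the 10 genes of largest SD over the tumors (of those above the median level).

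Regulators of muscle fate followed. Myog, myogenin, had levels of 9.76, 7.60, 9.54, 7.67 and 7.08 in Rb/p53-mutated PB1 to PB5, against 6.79, 6.72 and 6.76 in cerebellum 1 to 3, and Myod1 had levels of 9.44, 8.21, 8.67, 7.96 and 7.92 in Rb/p53-mutated PB1 to PB5, against 7.43, 7.41 and 7.48 in cerebellum 1 to 3. PB1 was highest for both and PB5 lowest. None of Myl1, Myl4, Des, Acta1, Myog and Myod1 passed the test over 5 tumors (adjusted p = 0.0183 to 0.235). For 28 muscle genes listed after these values were seen, the mean level was 9.72, 8.06, 8.69, 7.63 and 7.37 in PB1 to PB5, against 7.33, 7.28 and 7.34 in cerebellum 1 to 3, and PB1 was the highest tumor for 27 of them. Of the 28, 2 passed upward and 0 downward. Rb/p53-deleted PBs also ranged widely, from 7.59 to 12.33 for Myl1 and from 7.91 to 10.39 for Myog. Whether the transcripts come from tumor cells or from muscle taken with the tumor was not tested.

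A group of genes differed widely among the cerebellum arrays. Obp1a, an odorant-binding protein, and Scgb2b24 and Scgb2b2, secretoglobins of the salivary and lacrimal glands, were among the 15 genes lowest in the tumors. Obp1a had levels of 4.74, 5.01, 4.89, 4.66 and 4.83 in Rb/p53-mutated PB1 to PB5, against 11.75, 13.33 and 10.32 in cerebellum 1 to 3. Scgb2b24 had levels of 5.55, 5.58, 5.51, 5.60 and 5.45 in Rb/p53-mutated PB1 to PB5, against 12.42, 13.64 and 10.55 in cerebellum 1 to 3. In both, the tumors were at the same low level, cerebellum 2 was highest and cerebellum 3 lowest.

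The salivary protein gene Bpifa2 had levels of 7.10, 6.55, 6.65, 6.62 and 6.35 in Rb/p53-mutated PB1 to PB5, against 12.21, 13.62 and 10.16 in cerebellum 1 to 3, and the casein gene Csn1s1 had levels of 5.002, 5.51, 5.50, 4.92 and 5.11 in Rb/p53-mutated PB1 to PB5, against 9.80, 11.87 and 8.28 in cerebellum 1 to 3. For 12 secretory genes of these glands and of milk, listed after the values were seen, the mean was 6.07, 6.21, 6.14, 6.02 and 6.19 in PB1 to PB5, against 10.26, 11.89 and 8.85 in cerebellum 1 to 3. All 12 were lower in the tumors and all 12 were highest in cerebellum 2 and lowest in cerebellum 3. The predicted gene Gm14743, also among the 15, spanned 4.15 to 4.41 in the tumors, with 8.85 to 12.05 in cerebellum. Gm1553, another of the 15, spanned 4.02 to 4.56 in the tumors, with 8.52 to 11.93 in cerebellum. Wap, whose promoter is part of the Cre transgene, is one of the 12, with levels of 7.35, 7.26, 7.30, 7.19 and 7.24 in Rb/p53-mutated PB1 to PB5, against 7.92, 8.82 and 7.61 in cerebellum 1 to 3 (-0.85 ± 0.23, adjusted p = 0.00836), and missed the threshold without cerebellum 1 or any 1 tumor (0.0124 to 0.0192). Whether gland RNA entered these 3 samples was not tested.

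The same 5 tumors can be set against the 11 Rb/p53-deleted PBs of the table. Over all genes 2878 (14.4%) passed upward and 3484 (17.5%) downward in Rb/p53-mutated relative to Rb/p53-deleted PBs, and on deposited values 85 and 17709. With median centring 3097 passed upward and 2281 downward, so the larger count changed sides. The list counts of this comparison are on quantile-normalized values only. The 2 groups have different array distributions as deposited, so array set and genotype cannot be told apart. Of the 28 photoreceptor and pineal transcription factors 3 were higher and 4 lower, of 22 rod genes 1 and 1, and of 22 interferon genes 3 and 3. Other lists were more one-sided. Of 51 mitotic genes 1 was higher and 24 were lower (median -0.31), of 42 licensing and fork genes 2 and 13 (median -0.16), of 23 nucleotide synthesis genes 1 and 12 (median -0.30), and of 44 oxidative phosphorylation genes 5 and 21 (median -0.15), beside a median of -0.04 over all genes. The opposite held for the microglia and macrophage list, with 9 of 25 higher and 2 lower (median 0.28), and for the endothelial and pericyte list, with 7 of 28 higher and 0 lower (median 0.27). The paper ranked all genes and used gene set enrichment analysis, a measure unlike these counts of genes past a threshold in other lists. It reports Bard1, mRNA processing, transcription, cell cycle and mitotic replication pathways as enriched in Rb/p53-mutated PBs. Immune response and metabolic pathways were reported as enriched in Rb/p53-deleted PBs. The oxidative phosphorylation list here ran the same way. The splicing factor list (9 of 35 higher and 8 lower) and the interferon list leaned to neither side. The mitotic, licensing and microglia lists ran the other way. So did the BRCA and Fanconi list (2 of 35 higher and 11 lower) and the MHC list (4 of 15 higher and 0 lower). The reason was not tested. Mycn was higher by 0.90 (adjusted p = 0.000314), with levels in Rb/p53-mutated PBs of 11.09 to 12.26 and in Rb/p53-deleted PBs of 10.50 to 11.45. Neurod4 fell by 0.76 (adjusted p = 7.75e-05), at 11.61 to 12.05 in Rb/p53-mutated PBs and 12.31 to 13.23 in Rb/p53-deleted PBs. Gnat2 fell by 1.07 (adjusted p = 2.77e-05), at 10.11 to 10.70 in Rb/p53-mutated PBs and 10.94 to 12.00 in Rb/p53-deleted PBs. For Neurod4 and Gnat2 the tumor groups did not overlap.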

How the data were processed

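RNA of snap-frozen tumors and of cerebellum was measured on Affymetrix Mouse Gene 1.0 ST arrays. The deposited values are log2 levels per transcript cluster, made by the authors with robust multi-array averaging (background correction, quantile normalization and summarization) in Affymetrix Expression Console; the arrays run together are not given in the sources used here. As the deposited medians differed between groups, the 19 arrays of the table were quantile-normalized again, which assumes equal distributions of RNA in all samples. Arrays hold no counts, and precision is limited by how many arrays each group has. Of 35556 clusters, 21789 carried 1 symbol, and the cluster with the highest mean stood for a gene, leaving 19938 genes.

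Groups were taken from sample titles, and 0 of 28 pairs of the 8 arrays were identical. The 5 tumors and 3 cerebellum arrays were compared with lmFit and eBayes of limma 3.58.1 (R 4.3.3), and p-values were adjusted by Benjamini-Hochberg over all genes, with a threshold of 0.01. The fit has 6 residual and 3.26 prior degrees of freedom. The scripts were tested on simulated data. Tables and figures were made with Python 3.11.15, pandas 2.3.3 and matplotlib 3.10.9. Of 1247 genes in 50 lists, 1148 were measured. Promoter sequences are those of RefSeq (GRCm38.p6).

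Genes were named from the 15 of largest difference in each direction among those past the threshold without overlap, up to 6 passing and 3 not passing members of each list, all members of lists of 15 or fewer, the genes the study stained, the defining cell type markers, and the 10 genes of largest SD over the tumors among those above the median level. That rule takes 611 genes, of which the text names 162, picked with their values seen, so the named members of a list do not stand for the whole list. Outside the rule, 22 were chosen after their values were seen: Cnga1, Rcvrn, Rp1, Cdk4, Ccnd1, Fen1, Ezh1, Lamp2, Ldha, Glra3, Gabrr1, Gabrr2, Cplx3, Stx3, Gli2, Gli1, Ptch1, Myog, Myod1, Bpifa2, Csn1s1 and Cox6a2. The members and lists were chosen with earlier results of these data known. Alternatives were the deposited values, other scalings, a filter on dim genes, a minimum difference, the mean of clusters, another prior, a fit of all 19 arrays, the replicate number as a block, and the omission of each array. The Mouse Gene 2.0 ST table was not used here, and the p53 transcript and some of its targets were not analysed here.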

Additional observations from a re-analysis of the deposited data

Results flagged for a closer look

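Of 184 genes named, 12 had 1 tumor apart from the other 4, by a gap above Dixon's 95% critical value for 5 values, which chance gives in about 1 in 20 groups. How many of all genes have such a gap was not counted, and many of the 184 were picked with their values seen. The 12 are thus not shown to exceed that rate. For 7 of the 12 the tumor apart was PB2. PB2 stood apart with the highest level for Dlk1 (12.30), Lgi1 (6.78), St8sia5 (6.51), Gad1 (7.38) and Adcyap1r1 (8.26), and with the lowest for Impg2 (12.13) and Cxcl10 (9.98). PB5 was lowest for Bsx (9.55) and Bcl2l2 (7.59), PB1 was lowest for Cbln3 (7.19) and highest for Dbp (10.32), and PB4 was lowest for Cplx3 (10.17). Each of the 12 kept its distance from cerebellum without overlap.

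Of the named genes, some of which were chosen with their values seen, 12 passed the limma test of Rb/p53-mutated tumors against Rb/p53-deleted ones with a difference of at least 1. Over all genes, 198 (0.993%) passed upward and 129 (0.647%) downward by that much. Higher in Rb/p53-mutated PBs were recoverin (Rcvrn, 1.97, adjusted p = 0.00492), Col10a1 (1.85, 0.00024), Cd74 (1.62, 0.000294), Acta2 (1.54, 0.0036), Spi1 (1.51, 3e-07), Gabrr2 (1.29, 0.000464), C1qb (1.12, 6.89e-06), H2-Aa (1.12, 0.00508) and Fcer1g (1.09, 1.49e-05). Lower were Calb1 (-1.13, 0.00194), Ndufa4 (-1.12, 3.33e-07) and Gnat2 (-1.07, 2.77e-05). Spi1, C1qb and Fcer1g are myeloid genes and Cd74 and H2-Aa class II genes, while Col10a1 and Acta2 belong to matrix and smooth muscle. Array set and genotype cannot be told apart in this comparison.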

How the results depend on the processing

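Relative to cerebellum, 4742 genes passed upward and 5491 downward in the tumors. On values as deposited the counts were 999 and 15077, with only genes above the median level 2921 and 3153, and with a minimum difference of 1 they were 1879 and 2376; the last pair of settings keeps fewer genes by construction. The other scalings, cluster means, the other prior and the fit of all 19 arrays gave 4726 to 5129 higher and 5489 to 5968 lower. Leaving out 1 array gave 3550 to 4806 higher and 4305 to 5592 lower. Against Rb/p53-deleted PBs 2878 were higher and 3484 lower, and the deposited values gave 85 and 17709. Median centring gave 3097 higher and 2281 lower, so the larger count moved from lower to higher. The cause was not tested. Of the 184 named genes, 12 changed sign as deposited. Of these, 5 had passed, Opn1sw (-0.32), Mdm2 (-0.67), Lamp2 (-0.28), Slc1a2 (-0.51) and Cspg4 (-0.10), and 7 had not, Neurod1, Aanat, Pde6h, Rb1, Igf2, Nes and Cdkn1b.

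The labels do not say whether samples with the same number share anything else. Their deviations from the group means correlated at -0.01, -0.05 and 0.05 for numbers 1 to 3, and not every sample correlated best with its own number. With so few pairs, these values cannot decide whether such samples share a batch or an animal. With the replicate number as a block, 3737 genes passed upward and 4395 downward against cerebellum, and 1176 upward and 1216 downward against Rb/p53-deleted PBs. Of the named genes 7 lost the threshold under the block and 7 gained it.

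With 3 cerebellum arrays, leaving out any 1 of them cost 9 of the named genes the threshold. Genes at the lower end of the scale are close to array background, which these values do not show.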

Other observations

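Levels along the autosomes were set side by side as a description, with no test. For each tumor, chromosome and gene above the median level, the level was taken relative to the median of the other 4 tumors, and the median over the genes of the chromosome was kept. Of 95 such values, 4 were beyond 0.2 in either direction. PB5 stood at -0.47 over 360 genes of chromosome 12 and at -0.25 over 566 genes of chromosome 8. PB2 stood at -0.33 over 377 genes of chromosome 15, and PB1 at 0.24 on chromosome 8. Copy number was not measured on these arrays.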
